A study of Mus musculus with 39 samples.

Results

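The data described here are the transcriptomes of microglia from male 5XFAD mice after chronic intermittent hypoxia (CIH) or normoxia (NX), taken at 8 months of age. They were chosen as the 5 libraries of 5XFAD NX males and the 5 libraries of 5XFAD CIH males, 10 of the 39 libraries of the series, and as the genes with more than 1 CPM (counts scaled to the size of the library) in at least 3 of them. This left 14334 of the 54532 genes listed in the male table, of which 12323 were protein-coding. Both groups carried the 5XFAD transgenes, mutant human genes of familial Alzheimer's disease that a neuronal promoter drives, and came from 5XFAD fathers and C57BL/6J mothers. Exposure began at 4 months of age and lasted 4 months. In CIH, inspired oxygen alternated with room air in 90-s intervals during the period of sleep. The oxygen low point was 6% for 12 h per day according to the methods and 6.5% for 8 h per day according to the sample labels. NX mice breathed air at 21% O2 in the same airflow and noise. CD11b+ cells were pulled from the cerebrum with magnetic beads after the vessels had been flushed, so the libraries hold whatever else the beads retained. Neither the labels nor the methods say how many mice went into a library, and the p-values measure the spread between libraries.

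Microglia are the resident macrophages of the brain. Around amyloid they leave a homeostatic program, led by genes such as Cx3cr1 and Tmem119, for a disease-associated (DAM) program in which Apoe and genes of lysosomes and lipid handling rise. Low oxygen acts on cells chiefly through the transcription factors HIF1A and EPAS1 (HIF-2α), whose targets include glycolytic enzymes. Repeated hypoxia with reoxygenation, the hallmark of sleep apnea, is known above all for oxidative stress, inflammatory signaling and disturbed sleep.

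Markers of microglia were abundant in every library. Levels of Csf1r, the receptor for the growth factor on which microglia depend, were 7914, 7342, 7567, 7472 and 6700.2 CPM in NX 1 to 5 and 7619, 8182, 7971, 7223 and 6850.3 CPM in CIH 1 to 5. All 25 genes of the homeostatic list passed the filter. Markers of other brain cells were far lower in sum, at 11.3 to 28.5 CPM in NX and 7.90 to 29.3 CPM in CIH for 9 of 12 neuronal genes. The sum was 350.5 to 971.6 CPM and 208.6 to 581.2 CPM for 11 of 11 astrocyte genes, most of it Gfap, and 328.4 to 620.9 CPM and 295.4 to 470.9 CPM for 14 of 14 oligodendrocyte genes.

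The libraries held 13457293 to 21302810 counts. NX 4 and NX 5 stood apart from the other 8. On the first principal component of log2 CPM, which carried 40.2% of the variance, they lay at 64.8 and 67.5, whereas NX 1 to 3 lay between −44.0 and −38.7 and CIH 1 to 5 between −54.6 and 35.1. Ribosomal protein genes took 3.14% and 2.98% of the counts in NX 4 and NX 5, against 4.41% to 6.996% in the others. Long noncoding RNAs took 1.15% and 1.17%, against 0.66% to 0.79%. More genes had at least 1 count in NX 4 and NX 5, at 22743 and 22621, than in the other libraries, at 18350 to 20736. Values without NX 4 and NX 5, a setting chosen after the data were seen, are given below where a printed log2FC of CIH against NX or a list median turned its sign or moved by more than 1.5 times.

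**Figure D1:**
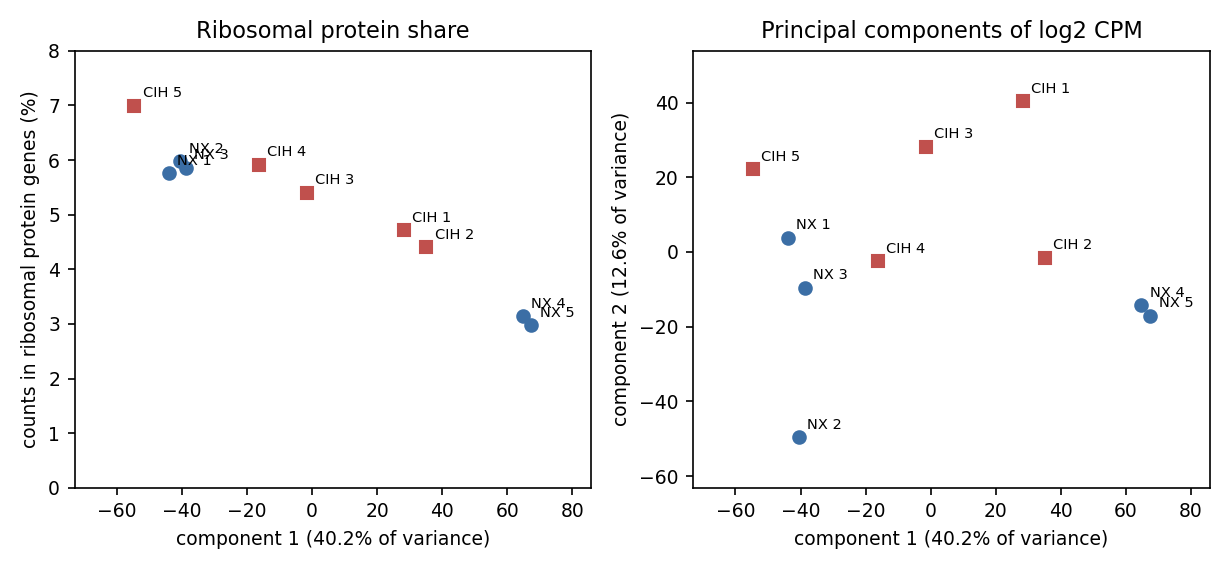
Left, share of counts in ribosomal protein genes (%) against the first principal component of log2 CPM for the 10 libraries (circles, NX; squares, CIH); right, the first against the second component. NX 4 and NX 5 lie at the right end with the lowest ribosomal share, and the CIH libraries spread between CIH 5 at −54.6 and CIH 2 at 35.1.

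The question of the comparison 5XFAD NX vs 5XFAD CIH was whether CIH alters microglia that already respond to amyloid. With edgeR's quasi-likelihood test, 0 of 14334 genes (0%) passed a Benjamini-Hochberg FDR of 0.05 with an absolute log2FC above 1, and the lowest adjusted p was 0.995. At an unadjusted p under 0.05 there were 473 genes (3.30%), of which 164 (1.14% of those tested) were higher and 309 (2.16%) were lower in CIH. The likelihood ratio test of edgeR called 1 gene (0.00698%) and DESeq2 called 1 gene (0.00698%), in both cases Tcap, with 537 and 629 genes at an unadjusted p under 0.05. The CIH libraries lay wholly above the NX libraries for 41 genes (0.286%) and wholly below them for 72 genes (0.502%). The log2FC was above 0 for 6910 genes (48.2%), with a median of −0.0099 over all genes.

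The SE and the 95% intervals give the size of difference that these libraries leave room for. The median SE of a log2FC was 0.23, and for 10272 genes (71.7%) the 95% interval of the log2FC lay inside a 2-fold change in either direction. For 5869 genes (40.9%) it lay inside a 1.5-fold change. Without NX 4 and NX 5, 0 of 13758 genes (0%) were called, and 1253 genes (9.11%) had an unadjusted p under 0.05.

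Tcap encodes titin-cap, a protein known from the Z-disc of striated muscle, and had the smallest p of all genes. The gene lies at chr11:98383811-98384953 on the plus strand of GRCm38. Its level was 10.5, 7.71, 13.6, 6.96 and 6.26 CPM in NX 1 to 5 and 20.2, 16.1, 22.3, 17.6 and 23.8 CPM in CIH 1 to 5. Every CIH library lay above every NX library, with NX 3 the highest NX and CIH 2 the lowest CIH library. The SD was 3.02 CPM in NX and 3.16 CPM in CIH. The log2FC was 1.15 ± 0.22 (SE, n = 5 per group; 95% interval 0.67 to 1.63). The adjusted p was 0.995 with the quasi-likelihood test, 0.0254 with the likelihood ratio test and 0.00975 with DESeq2. The log2FC was 0.92 without NX 4 and NX 5 and 1.04 to 1.35 with any 1 library left out.

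Raw counts of Tcap were 97 to 196 in NX and 246 to 413 in CIH. The neighbouring genes on chromosome 11 had smaller log2FC values than Tcap. Stard3, which encodes a cholesterol-binding protein of late endosomes and ends upstream of Tcap on the same strand, was at 120.5 to 181.1 CPM in NX and 149.7 to 168.0 CPM in CIH (log2FC 0.13 ± 0.14, SE). Pgap3 (0.07 ± 0.22) and Ppp1r1b (0.32 ± 0.37) likewise overlapped between groups, and Pnmt and Erbb2, with 103 and 60 counts over the 10 libraries, did not pass the filter. With NX 4 and NX 5 left out, the log2FC was −0.03 for Stard3, −0.16 for Pgap3 and 0.10 for Ppp1r1b. Of a list of 20 striated muscle genes, 5 passed the filter. Mylpf, a fast-muscle myosin light chain, had a log2FC of 1.23 (adjusted p = 0.995), Tnni2 0.23, Myl2 −0.10 and Des −1.35, and none of these 4 separated the groups. The log2FC without NX 4 and NX 5 was 0.74 for Mylpf, −0.13 for Tnni2 and −0.35 for Myl2.

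In WT males of the same age Tcap was low, with 3 to 15 counts per library (0.193 to 0.861 CPM) in NX and CIH alike, and did not pass the filter. In 5XFAD females, taken at 10 months of age after 6 months of exposure, it was at 5.999 to 7.86 CPM in NX apart from NX 4 at 0.494 CPM, and at 4.68 to 12.05 CPM in CIH. The female log2FC was 0.61 ± 0.49 (SE), and 0.31 without the female NX 4. The difference between the male and the female log2FC was 0.57 (adjusted p = 1.00, quasi-likelihood test).

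**Figure D2:**
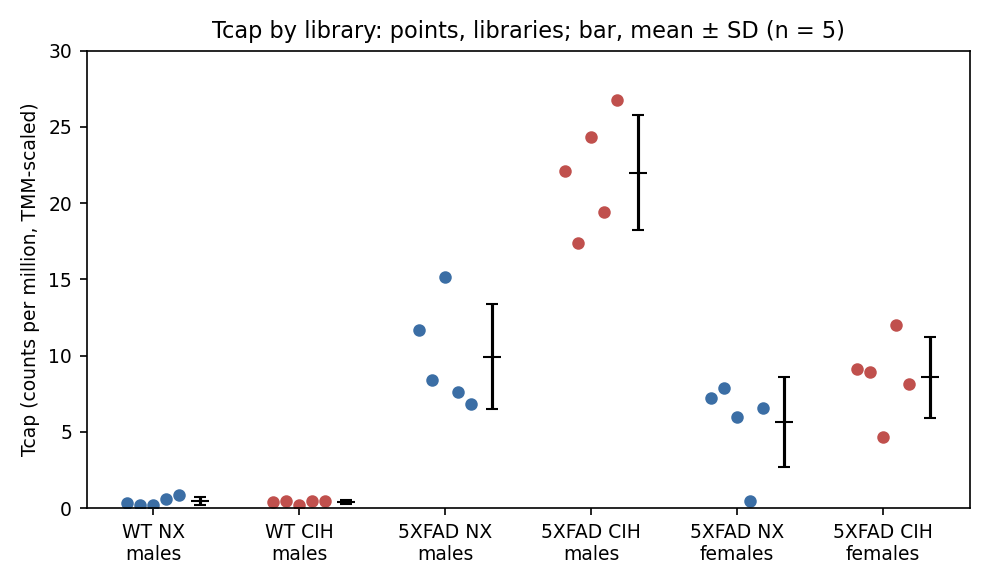
Tcap in CPM (TMM-scaled) in single libraries of WT males, 5XFAD males and 5XFAD females after NX or CIH, with the mean ± SD of 5 libraries per group. The 5 CIH libraries of 5XFAD males lie above the 5 NX libraries, and both WT male groups lie near 0.

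Among protein-coding genes whose groups did not overlap, the 8 with the smallest p in each direction were as follows. Higher in CIH were Tcap, the endoplasmic reticulum chaperone genes Dnajb9 and Creld2, the clock genes Nr1d1 and Per1, the NF-κB regulator Nfkbid, Tcim and Dnajb13. Lower in CIH were the vascular genes Abcb1a, Arhgef15, Lama5, Tie1 and Cavin1, the metalloprotease inhibitor Reck, the ciliary gene Ttc8 and Iqch. None but Tcap passed an adjusted test with any of the 3 tools, so the values below are descriptions.

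**Figure D3:**
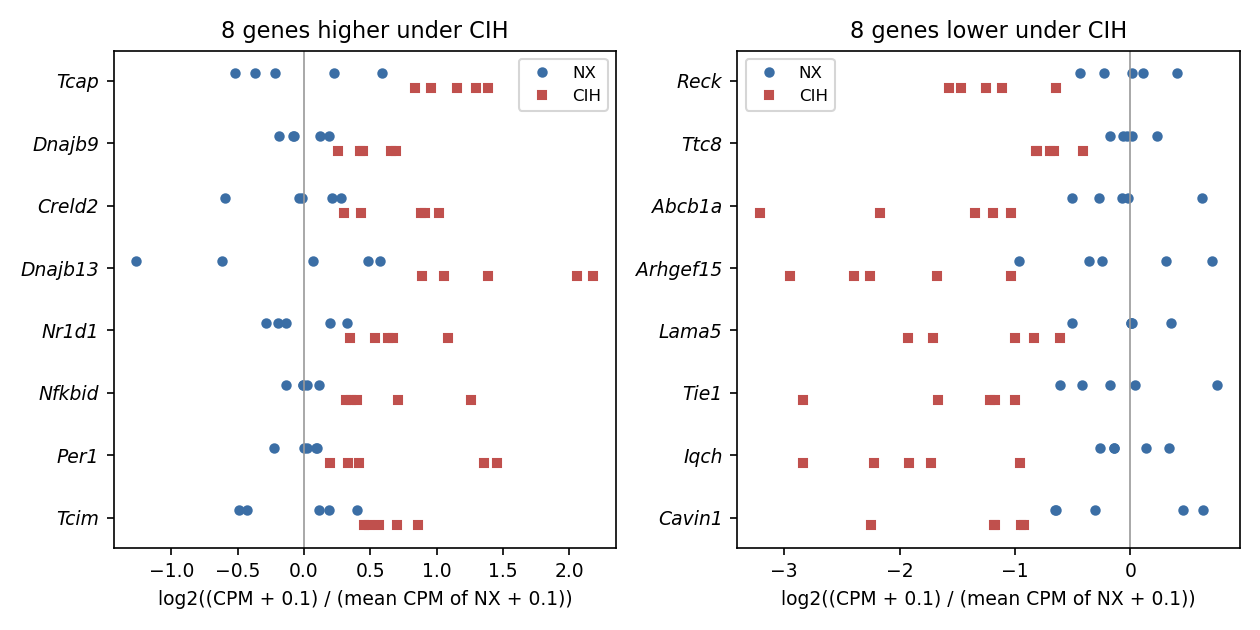
The 8 genes higher and the 8 genes lower in CIH with the smallest p among protein-coding genes without overlap between groups. Each point is a library (circles, NX; squares, CIH) on a log2 scale relative to the mean of NX, and in each row all squares lie to the same side of all circles.

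Dnajb9 encodes a co-chaperone that the unfolded protein response induces. Its level was 44.8, 51.7, 45.2, 41.7 and 54.1 CPM in NX and 75.02, 76.8, 64.8, 63.7 and 56.7 CPM in CIH 1 to 5, with a log2FC of 0.50 ± 0.13 (SE). Creld2, another secretory-pathway chaperone gene, was at 38.4, 44.7, 47.1, 25.5 and 37.7 CPM in NX and 78.3, 72.7, 71.3, 52.2 and 47.8 CPM in CIH, with a log2FC of 0.74 ± 0.19 (SE). The highest values of both genes were those of CIH 1 and CIH 2, and without these libraries the log2FC was 0.37 for Dnajb9 and 0.56 for Creld2. Hspa5 encodes BiP, the master chaperone of the endoplasmic reticulum, and likewise stood highest in CIH 1 and CIH 2. It was at 547.6, 613.1, 572.8, 447.1 and 745.3 CPM in NX and 1394, 1346, 941.3, 771.4 and 549.4 CPM in CIH. The groups overlapped for Hspa5 through CIH 5 (log2FC 0.77 ± 0.24, SE; 0.36 without CIH 1 and CIH 2).

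Of 25 genes fixed as unfolded protein and heat shock genes, 24 were tested. The log2FC was above 0 for 19 of these, 9 had an unadjusted p under 0.05 with higher values in CIH, against 1.14% of all genes, and none had one with lower values. The median log2FC was 0.33, beside −0.0099 over all genes. It was 0.13 without CIH 1 and CIH 2 and 0.16 without NX 4 and NX 5, where 10 of the 24 had a p under 0.05, against 9.11% of all genes. Only Dnajb9 separated the groups, against 0.286% of all genes higher in CIH, and 16 of the 24 intervals lay inside 2-fold, against 71.7% of all genes. The most variable members were the inducible heat shock genes Hspa1a and Hspa1b, a nearly identical pair whose reads cannot be told apart with certainty. Hspa1a was at 16.1, 7.15, 10.1, 9.099 and 12.5 CPM in NX and 126.5, 27.5, 27.5, 26.1 and 3.74 CPM in CIH, highest in CIH 1 and lowest of all libraries in CIH 5. Hspa1a and Hspa1b were singled out after their values were seen.

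The promoters of the endoplasmic reticulum genes are shown because their best-known element, the ER stress response element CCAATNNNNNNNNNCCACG that the factors ATF6 and NFY read, is rare, and Creld2 and Hspa5 stood highest in CIH 1 and CIH 2. It occurred, on either strand, in 37 of 32851 RefSeq promoters (250 bases before the start site; 0.113%), and in 4 of the 22 genes of the unfolded protein and heat shock list that were matched to a promoter (25 promoters in all), Calr, Hsp90b1, Hspa5 and Pdia6. Creld2, which is not on the list, also held it. The capitals mark the element, which lies on the opposite strand in Creld2 (chr15:88819396-88819645, plus strand, 126 to 108 bases before the start site) and on the plus strand in Hspa5 (chr2:34772025-34772043, 65 to 47 bases before it), both on GRCm38.p6.
Creld2: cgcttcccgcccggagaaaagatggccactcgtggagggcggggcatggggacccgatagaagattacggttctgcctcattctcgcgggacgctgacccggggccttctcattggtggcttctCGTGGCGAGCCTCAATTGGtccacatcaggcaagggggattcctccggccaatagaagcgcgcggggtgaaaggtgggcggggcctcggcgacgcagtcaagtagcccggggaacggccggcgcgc
Hspa5: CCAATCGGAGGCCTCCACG

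The genes that hold the element differed in their values. Calr, a calcium-binding chaperone with the element, was at 1461, 1429.6, 1501, 867.8 and 1085 CPM in NX and 1482, 1485, 1341, 1273 and 1403 CPM in CIH, with a log2FC of 0.14 ± 0.16 (SE; −0.06 without NX 4 and NX 5). Dnajb9 does not hold these letters in its window.

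Per1 encodes a repressor of the circadian clock and is also a direct target of the glucocorticoid receptor. Its level was 62.8, 63.8, 67.2, 53.7 and 67.1 CPM in NX and 161.5, 172.7, 83.7, 72.2 and 79.4 CPM in CIH (log2FC 0.86 ± 0.24, SE). CIH 1 and CIH 2 carried most of this difference, since the other 3 CIH libraries lay only just above NX, and without CIH 1 and CIH 2 the log2FC was 0.31. Nr1d1 encodes the clock repressor REV-ERBα and was spread more evenly, with 9.003, 6.44, 7.13, 9.89 and 6.84 CPM in NX and 11.4, 16.8, 12.6, 10.03 and 12.3 CPM in CIH (log2FC 0.68 ± 0.19, SE). Of 17 tested clock genes, 13 were above 0, and with all 10 libraries Per1 and Nr1d1 had a p under 0.05, both higher in CIH, against 1.14% of all genes. The list median was 0.19. It was 0.365 without NX 4 and NX 5, with 15 of the 17 above 0 and 8 at a p under 0.05, against 9.11% of all genes in either direction. Arntl, the activator of the clock loop, had a log2FC of −0.18 ± 0.24 (SE), and 0.03 without NX 4 and NX 5. The labels give no hour of tissue collection, so the time of day was not tested.

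The glucocorticoid list, 13 tested genes that corticosteroids induce in many cells, was highest in CIH 1 and CIH 2. Fkbp5, a chaperone of the glucocorticoid receptor and a standard readout of corticosteroid action, was at 73.9, 77.2, 84.4, 88.2 and 88.5 CPM in NX and 189.1, 302.6, 101.1, 84.3 and 96.6 CPM in CIH. CIH 4 lay inside the NX range, and the log2FC of 0.91 ± 0.31 (SE) became 0.51 without CIH 2 and 0.18 without CIH 1 and CIH 2. Of the 13 genes, 10 were above 0, and 6 had a p under 0.05 and were higher in CIH, against 1.14% of all genes. The highest library was CIH 2 for 7, against 8.34% of all genes, and CIH 1 for 3, against 6.0%. The list median was 0.45, and 0.0971 once CIH 1 and CIH 2 were left out. With NX 4 and NX 5 left out, 4 of the 13 had a p under 0.05, against 9.11% of all genes. Ddit4, an inhibitor of mTORC1 that both hypoxia and glucocorticoids induce, was at 8.66, 17.2, 16.1, 7.76 and 9.74 CPM in NX and 34.3, 54.4, 9.66, 14.996 and 12.3 CPM in CIH, so that CIH 3 to 5 lay within the NX range.

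The windows of Per1 and Fkbp5 are printed because each holds the E-box CACGTG that the clock factors CLOCK and BMAL1 read. The capitals mark it, 166 to 161 bases before the start site in Per1 (chr11:69098699-69098947, plus strand) and 169 to 164 bases before it in Fkbp5 (chr17:28486150-28486399, minus strand), on GRCm38.p6. These letters read alike on both strands and occurred in 1978 of the 32851 promoters (6.02%), in 5 of 15 matched clock genes (20 promoters) and in 4 of 12 matched glucocorticoid genes (22 promoters), Dusp1, Fkbp5, Per1 and Sgk1.
Per1: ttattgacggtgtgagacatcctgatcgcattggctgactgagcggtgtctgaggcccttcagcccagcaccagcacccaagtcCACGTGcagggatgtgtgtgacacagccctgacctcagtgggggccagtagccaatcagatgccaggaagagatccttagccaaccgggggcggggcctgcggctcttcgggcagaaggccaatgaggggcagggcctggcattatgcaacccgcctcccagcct
Fkbp5: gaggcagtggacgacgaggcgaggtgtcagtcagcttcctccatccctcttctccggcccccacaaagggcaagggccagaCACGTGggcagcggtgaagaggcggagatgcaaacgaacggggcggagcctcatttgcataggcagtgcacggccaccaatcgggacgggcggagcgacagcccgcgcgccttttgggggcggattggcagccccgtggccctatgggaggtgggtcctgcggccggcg

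Sgk1, a glucocorticoid-induced kinase with the same letters, was at 284.0, 343.4, 291.7, 436.1 and 421.9 CPM in NX and 509.8, 372.1, 340.1, 318.6 and 438.1 CPM in CIH, with a log2FC of 0.15 ± 0.17 (SE; 0.38 without NX 4 and NX 5). A match of letters is a description and says nothing of binding in these cells.

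All 25 tested genes of the immediate-early and dissociation list, most of which are known to be switched on quickly by stimulation and by the dissociation of brain tissue, had a log2FC above 0. Of these, 10 had a p under 0.05 and were higher in CIH, against 1.14% of all genes, and the list median was 0.50. CIH 1 was the highest library for 22 of the 25, against 6.0% of all genes. Zfp36, whose product degrades cytokine mRNAs, was at 417.2, 523.7, 389.1, 330.4 and 326.6 CPM in NX and 1050.0, 512.9, 681.9, 500.4 and 599.9 CPM in CIH (log2FC 0.75 ± 0.21, SE). Junb, a subunit of the transcription factor AP-1, was at 331.0, 299.5, 269.7, 201.0 and 161.4 CPM in NX and 610.5, 270.9, 417.5, 314.9 and 411.0 CPM in CIH. The groups overlapped in both genes, and the log2FC of Junb was 0.68 ± 0.24 (SE; 0.44 without NX 4 and NX 5). The list median was 0.39 without NX 4 and NX 5, and 3 of the 25 then had a p under 0.05, against 9.11% of all genes in that fit. The median was 0.25 without CIH 1 and 0.20 without CIH 1 and CIH 2. It was −0.04 in WT males, −0.12 in 5XFAD females and −0.05 in 5XFAD females without the female NX 4, a setting chosen after the data were seen. The part that tissue handling has in these values was not tested.

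Inflammatory cytokine and chemokine genes leaned the same way, with 20 of 27 tested above 0, 6 at a p under 0.05 and higher, against 48.2% and 1.14% of all genes, and a median of 0.13. The median was 0.346 without NX 1. In the fit without NX 4 and NX 5, 4 of the 27 had a p under 0.05, against 9.11% of all genes. Ccl4, a chemokine that activated microglia release in quantity, was at 272.5, 362.8, 260.5, 213.7 and 154.9 CPM in NX and 439.2, 212.9, 392.3, 340.5 and 486.4 CPM in CIH (log2FC 0.57 ± 0.24, SE; 0.33 without NX 4 and NX 5). Tnf, named after its values were seen, was at 17.2, 12.8, 18.3, 18.9 and 10.3 CPM in NX and 50.4, 13.6, 33.4, 14.04 and 34.2 CPM in CIH (log2FC 0.91 ± 0.34, SE), highest in CIH 1. Il6 was at 3.91, 6.16, 3.39, 4.34 and 4.71 CPM in NX and 2.75, 4.79, 2.54, 4.11 and 3.28 CPM in CIH, with overlapping groups and a log2FC of −0.36 ± 0.26 (SE; −0.21 without NX 2). Nfkbid, a nuclear IκB protein, separated the groups at 19.4, 18.9, 17.3, 20.6 and 18.97 CPM and 45.6, 23.7, 31.1, 25.1 and 24.4 CPM (log2FC 0.66 ± 0.18, SE).

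Interferon response genes lay on the other side. Of 36 tested, 29 were below 0, 6 had a p under 0.05 and were lower in CIH, against 2.16% of all genes, and the median was −0.19, with 29 intervals inside 2-fold, against 71.7% of all genes. The median was −0.29 without NX 4 and NX 5, where 10 of the 36 had a p under 0.05, against 9.11% of all genes. Rsad2, which encodes the antiviral enzyme viperin, was at 9.795, 11.8, 9.34, 11.1 and 8.71 CPM in NX and 6.205, 5.44, 5.62, 6.59 and 8.98 CPM in CIH (log2FC −0.63 ± 0.19, SE), and CIH 5 alone reached the NX range. The most abundant members differed less. Bst2, the viral tether tetherin, was at 298.8, 232.6, 257.6, 117.9 and 105.2 CPM in NX and 162.5, 129.7, 195.1, 258.2 and 324.5 CPM in CIH (log2FC 0.08 ± 0.32, SE), and Ifitm3, a block to viral entry, was at 157.2, 149.2, 146.9, 58.1 and 53.7 CPM and 81.4, 74.02, 97.4, 149.0 and 172.3 CPM (0.02 ± 0.34, SE). In both genes the low NX values were those of NX 4 and NX 5, and without them the log2FC was −0.29 for Bst2 and −0.39 for Ifitm3.

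HIF target genes had a median log2FC of −0.02. Of 30 tested, 12 were above 0, 3 had a p under 0.05 and were lower in CIH, against 2.16% of all genes, and 1 had one and was higher, against 1.14%. Of the 95% intervals, 27 lay inside 2-fold, against 71.7% of all genes. Hif1a itself was at 349.3, 423.0, 396.1, 507.8 and 537.9 CPM in NX and 378.4, 372.6, 339.9, 317.9 and 421.1 CPM in CIH (log2FC −0.27 ± 0.14, SE; −0.08 without NX 4 and NX 5). Pfkfb3, whose enzyme drives glycolytic flux, was at 186.8, 214.1, 225.2, 319.4 and 274.7 CPM in NX and 186.8, 181.9, 185.8, 171.8 and 190.4 CPM in CIH (log2FC −0.41 ± 0.14, SE), highest in NX 4 and NX 5, and at −0.18 without them. Of 21 glycolysis genes, 11 were above 0, none had a p under 0.05, against 3.30% of all genes, and the median was 0.01. Of the 21 genes, 1 was above 0 without NX 4 and NX 5, with a median of −0.06.

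Epas1 was the only HIF list member whose groups did not overlap, against 0.502% of all genes lower in CIH. It was at 29.3, 55.9, 32.4, 26.9 and 27.3 CPM in NX and 5.08, 24.4, 14.3, 21.9 and 14.96 CPM in CIH (log2FC −1.09 ± 0.35, SE). It encodes HIF-2α, which is most abundant in endothelium. Its lowest library, CIH 1, was also the lowest for 10 of 13 endothelial and mural genes, against 7.56% of all genes.

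Genes of blood vessel cells lay to the low side throughout. All 13 tested members of the endothelial and mural list were lower in CIH, 9 had a p under 0.05, against 2.16% of all genes, and the median log2FC was −1.23. Myh11, a smooth muscle myosin, was at 12.1, 11.04, 7.96, 13.3 and 8.97 CPM in NX and 1.41, 6.097, 6.17, 4.49 and 4.49 CPM in CIH (log2FC −1.23 ± 0.32, SE). Slco1a4, a transporter of the blood-brain barrier, was at 10.1, 19.5, 13.4, 13.1 and 11.4 CPM and 1.48, 2.36, 4.52, 7.69 and 9.32 CPM, and Tek, the receptor for angiopoietins, at 3.34, 9.06, 4.64, 4.89 and 5.81 CPM and 0.141, 3.21, 2.398, 2.24 and 2.07 CPM. Myh11, Slco1a4 and Tek were the 3 members without overlap between groups, against 0.502% of all genes lower in CIH. Cldn5, the main claudin of the blood-brain barrier, was at 29.4, 31.3, 29.2, 11.8 and 10.1 CPM in NX and 0.635, 2.88, 9.87, 10.7 and 11.7 CPM in CIH, and the low values of NX 4 and NX 5 met those of CIH 3 to 5.

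Of the 8 lower genes named above, 5 are vascular genes outside the list. They were picked for low values in CIH, so they add no support to the list. Abcb1a, the drug efflux pump P-glycoprotein of brain endothelium, was at 7.59, 12.3, 5.61, 6.595 and 7.87 CPM in NX and 0.776, 1.705, 3.08, 3.44 and 3.86 CPM in CIH (log2FC −1.62 ± 0.38, SE). Tie1, an endothelial receptor of the angiopoietin pathway, was at 6.34, 10.4, 4.57, 5.44 and 4.001 CPM and 0.776, 3.02, 2.67, 1.86 and 2.59 CPM (−1.49 ± 0.37, SE). Cavin1, a coat protein of caveolae, was at 9.74, 18.8, 16.5, 7.63 and 7.68 CPM and 2.47, 5.31, 5.28, 6.304 and 6.21 CPM (−1.23 ± 0.32, SE). Lama5, a laminin chain of vascular basement membranes, was at 8.89, 8.92, 6.23, 8.98 and 11.4 CPM and 2.26, 4.39, 4.93, 5.78 and 2.65 CPM (−1.14 ± 0.28, SE), and Arhgef15, an endothelial guanine nucleotide exchange factor, at 2.38, 3.54, 4.71, 1.405 and 2.19 CPM and 0.282, 0.459, 0.822, 1.34 and 0.518 CPM (−2.02 ± 0.49, SE). In bulk RNA, fewer cells of a type and less RNA per cell cannot be told apart. The summed level of the 13 list genes was 218.4 to 280.6 CPM in NX and 117.8 to 182.9 CPM in CIH, and the part that carried-over vessel cells have in these values was not tested. Much of this sum was Flt1, at 104.3 ± 21.5 CPM (SD) in NX and 88.7 ± 20.5 in CIH, scaled over the 4 male groups. In WT males Flt1 was at 22.6 ± 16.6 and 13.7 ± 7.31 CPM. Its log2FC in 5XFAD males was −0.24, and −0.02 without NX 4 and NX 5. Pecam1 was at −0.68 without NX 4 and NX 5 and −0.47 without CIH 1 and CIH 2. The list median was −1.31 without NX 4 and NX 5 and −0.94 without CIH 1 and CIH 2.

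Reck, which encodes a membrane-bound inhibitor of matrix metalloproteases, had the smallest p after Tcap. It was at 7.02, 8.63, 4.78, 6.595 and 5.55 CPM in NX and 2.96, 2.29, 2.12, 2.67 and 4.14 CPM in CIH (log2FC −1.19 ± 0.26, SE). The adjusted p was 0.104 with the likelihood ratio test and 0.0610 with DESeq2. Ttc8, a subunit of the BBSome that carries cargo into cilia, was at 9.46, 12.6, 10.5, 10.3 and 10.8 CPM and 8.04, 6.03, 6.58, 6.07 and 6.73 CPM (−0.68 ± 0.16, SE), and Iqch at 1.13, 0.920, 1.32, 0.916 and 0.839 CPM and 0.141, 0.197, 0.4796, 0.239 and 0.0575 CPM, close to the limit of the filter.

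Neutrophil genes had the lowest list median, −1.49, and all 13 tested were below 0, with 6 at a p under 0.05, against 2.16% of all genes lower in CIH. These values rested on NX 2, the highest library for 12 of the 13 genes, against 10.5% of all genes. S100a8, a subunit of calprotectin, was at 46.8, 321.3, 80.4, 16.7 and 28.1 CPM in NX and 39.1, 45.6, 14.9, 39.6 and 36.4 CPM in CIH, and Ngp, a granule protein, at 37.99, 229.6, 61.5, 12.3 and 16.1 CPM and 17.2, 23.5, 8.22, 20.9 and 15.6 CPM. No neutrophil gene separated the groups, against 0.502% of all genes lower in CIH, and the list median was −0.22 without NX 2 and −2.08 without NX 4 and NX 5. In the fit without NX 4 and NX 5, which keeps NX 2, 10 of the 13 had a p under 0.05, against 9.11% of all genes. Csf3r, which microglia also express, was the list's most abundant gene, at 916.6, 991.9, 1005, 985.6 and 1244 CPM in NX and 1079, 1019.6, 1029, 914.3 and 716.0 CPM in CIH.

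Astrocyte genes had a median log2FC of −0.41 with 2 of 11 above 0, oligodendrocyte genes −0.29 with 3 of 14, and neuronal genes −0.25 with 3 of 9. These medians moved with single libraries. The astrocyte median was −0.06 without NX 2, −0.20 without CIH 1 and −0.62 without CIH 4, and the oligodendrocyte median −0.16, −0.13 and −0.45 in the same order. The neuronal median was −0.03 without NX 2 and turned to 0.06 without CIH 1 and to 0.17 without CIH 1 and CIH 2. The 3 medians were −0.61, −0.52 and −0.49 without NX 4 and NX 5. Of these 34 genes only Cspg4, a marker of oligodendrocyte precursors and pericytes, had a p under 0.05, at 0.046 and higher in CIH, against 1.14% of all genes. Without NX 4 and NX 5, 4 of 13 oligodendrocyte genes had a p under 0.05, against 9.11% of all genes. No astrocyte or neuronal gene had one in that fit.

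**Figure D4:**
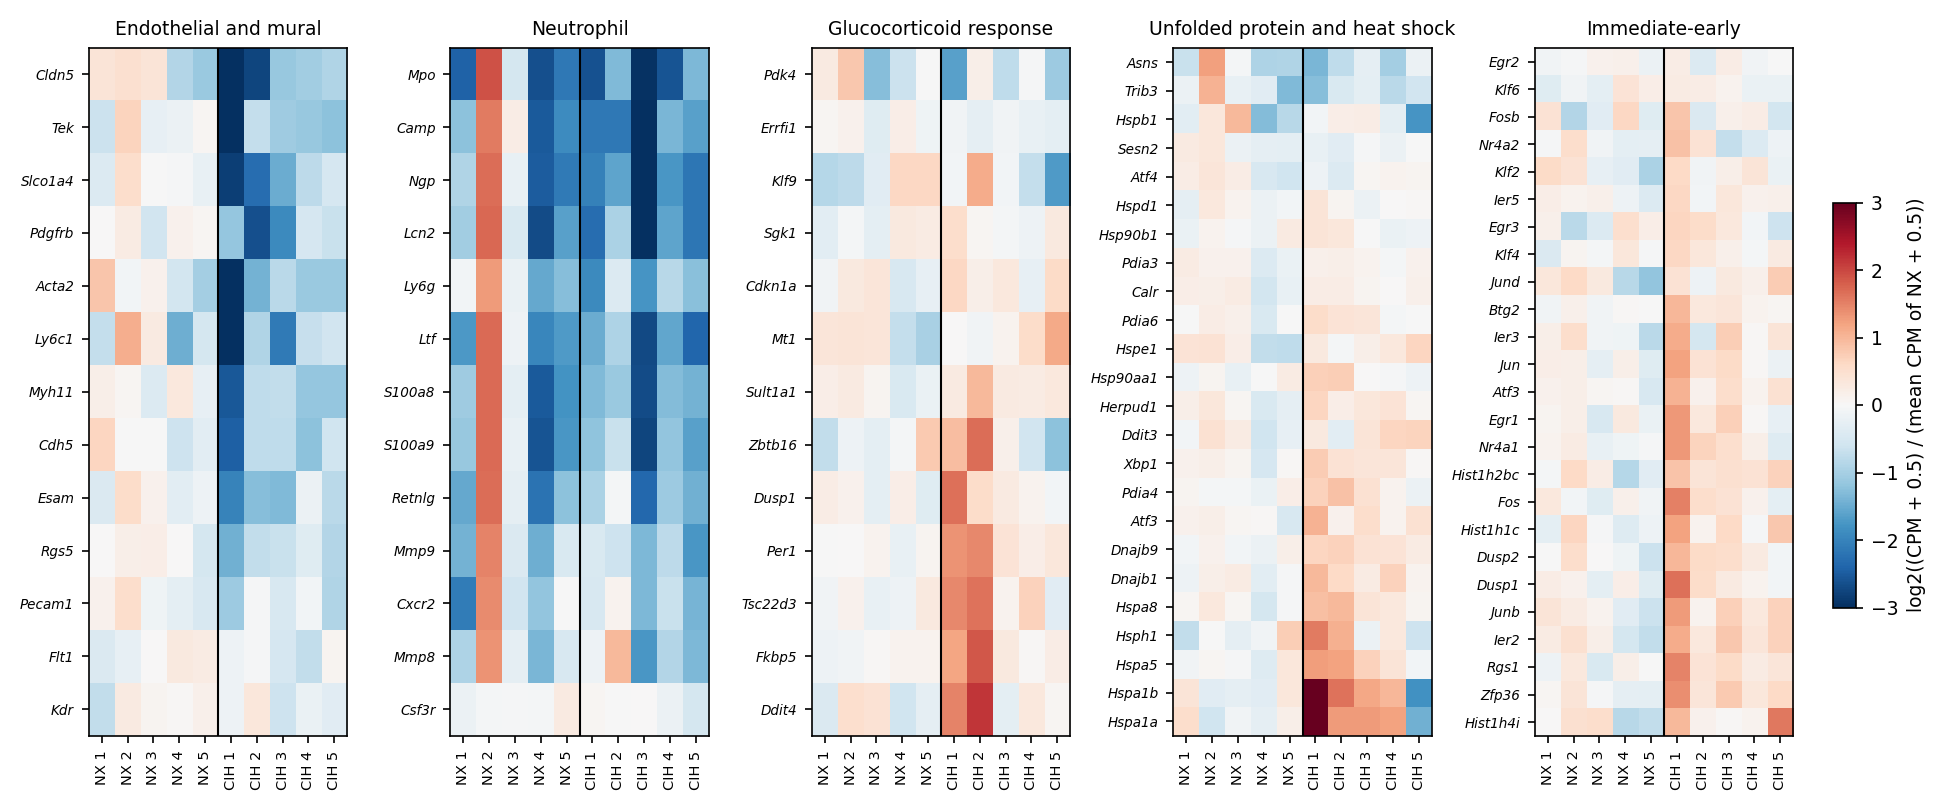
Members of 5 lists (rows) in the 10 libraries (columns; NX left and CIH right of the black line), coloured by log2 of the CPM relative to the mean of NX, with red higher and blue lower. The endothelial and mural rows are mostly blue in CIH, with CIH 1 the lowest library for 10 of 13 genes. The neutrophil rows are red chiefly in NX 2, the highest library for 12 of 13 genes. The glucocorticoid rows are red chiefly in CIH 1 and CIH 2.

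The programs that define microglia differed little. Of 25 homeostatic genes, 15 were above 0, none had a p under 0.05, against 3.30% of all genes, the median was 0.03, and 24 of the 95% intervals lay inside 2-fold, against 71.7%. Of the 25, 12 were above 0 without NX 4 and NX 5, with a median of −0.000351. In that fit 4 of the 25 had a p under 0.05, against 9.11% of all genes. Cst3, which encodes the protease inhibitor cystatin C, was at 27754, 21446, 25456, 12718 and 11370.0 CPM in NX and 19384, 15609, 23090.2, 27552 and 30687 CPM in CIH (log2FC 0.24 ± 0.27, SE), lowest in NX 4 and NX 5, and at −0.09 without them. Cx3cr1, the fractalkine receptor, was at 3661, 3602, 3267, 4181 and 3399 CPM and 2784, 3067, 3539.9, 3057 and 3161 CPM (−0.21 ± 0.12, SE).

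Of 35 DAM genes, 30 were above 0, 1 had a p under 0.05 and was higher, against 1.14% of all genes, the median was 0.22, and 30 of the intervals lay inside 2-fold, against 71.7%. Apoe, the lipid carrier that leads the DAM program, was at 22952, 21076, 30086, 13910.0 and 13124 CPM in NX and 25914, 18629, 22616, 23664 and 38846 CPM in CIH (log2FC 0.36 ± 0.25, SE). NX 4 and NX 5 held the lowest values and CIH 5 the highest. Cd52, a small surface glycoprotein and the member with the smallest p (0.040), was at 335.7, 294.2, 337.4, 174.4 and 160.2 CPM and 299.0, 277.2, 359.9, 436.6 and 607.4 CPM with the same libraries at its ends. Across the list CIH 5 was highest for 26 genes, against 18.1% of all genes, and NX 5 lowest for 20, against 17.6%. Without NX 4 and NX 5 the median was 0.003, with 18 of 35 above 0, and the log2FC was 0.07 for Apoe and 0.30 for Cd52. Without CIH 5 alone the median was 0.07 and the log2FC of Apoe 0.18.

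Complement, lysosome and antigen presentation genes gave medians of 0.04, 0.10 and 0.04, with none of 80 genes at a p under 0.05, against 3.30% of all genes. The 95% interval lay inside 2-fold for 25 of 25, 32 of 32 and 19 of 23 of them, against 71.7% of all genes. C1qa, which starts the classical complement cascade, was at 8463, 7604, 8981, 3915 and 3675 CPM in NX and 7294, 5675, 6966, 8249 and 11492 CPM in CIH (log2FC 0.28 ± 0.28, SE). Ctsd, the main aspartic protease of lysosomes, was at 22564, 22484, 25319.7, 13479 and 13462 CPM and 21616, 18342, 20531, 21675 and 31862 CPM (0.23 ± 0.22, SE). Both were lowest in NX 4 and NX 5 and highest in CIH 5, and without NX 4 and NX 5 the 3 list medians turned to −0.04, −0.03 and −0.21, the log2FC of C1qa to −0.07 and that of Ctsd to −0.04. In that fit 3, 1 and 5 genes of the lists had a p under 0.05, against 9.11% of all genes. The antigen presentation median also turned, to −0.06, without NX 4 alone, and was 0.195 without NX 1.

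Nuclear-encoded genes of oxidative phosphorylation (OXPHOS) and ribosomal protein genes ran in parallel. Of 82 OXPHOS genes 76 were above 0, with a median of 0.26 and 1 at a p under 0.05, and of 87 ribosomal protein genes 85 were above 0, with a median of 0.27 and 1 at a p under 0.05, both higher in CIH, against 1.14% of all genes. Atp5b, the catalytic subunit of ATP synthase, was at 470.6, 412.2, 462.9, 304.5 and 276.6 CPM in NX and 395.6, 404.3, 399.1, 457.3 and 475.5 CPM in CIH (log2FC 0.15 ± 0.16, SE). Rplp1, a protein of the ribosomal stalk, was at 2061, 2067, 2215, 912.2 and 837.4 CPM and 1583, 1248, 1821, 2030.4 and 2942 CPM (0.25 ± 0.31, SE). NX 5 was the lowest library for 53 of the OXPHOS and 77 of the ribosomal genes, and CIH 5 the highest for 70 and 79. Of all genes, NX 5 was the lowest library for 17.6% and CIH 5 the highest for 18.1%. Without NX 4 and NX 5 the medians were −0.08 and −0.09, and the log2FC was −0.07 for Atp5b and −0.13 for Rplp1, so the direction turned with these libraries. The medians were 0.09 and 0.13 without CIH 5 alone and 0.11 and 0.12 without NX 5 alone. Among CIH libraries, CIH 1 and CIH 2 had the lowest mean log2 CPM in both lists. It was 5.53 and 5.39 for OXPHOS, against 5.68 to 6.33 in CIH 3 to 5. For ribosomal protein genes it was 8.39 and 8.18, against 8.59 to 9.15.

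**Figure D5:**
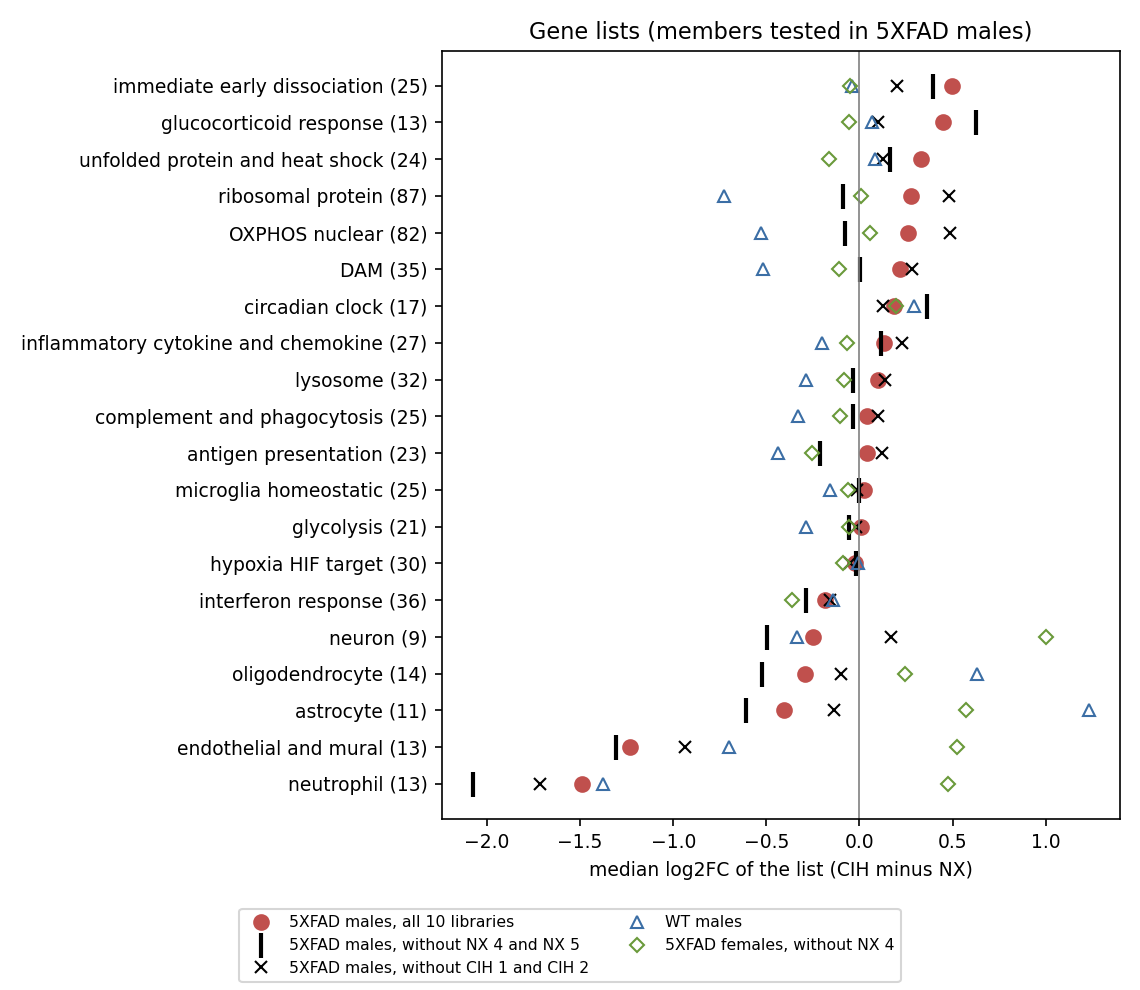
Median log2FC (CIH minus NX) of 20 gene lists in 5XFAD males with all 10 libraries (filled circles), without NX 4 and NX 5 (bars) and without CIH 1 and CIH 2 (crosses), in WT males (triangles) and in 5XFAD females without NX 4 (diamonds). The endothelial and neutrophil lists lie lowest in 5XFAD males, and the ribosomal and OXPHOS lists change sign without NX 4 and NX 5.

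WT males of the same cohort give the size of the CIH effect without amyloid. There, 376 of 14983 genes (2.51%) were called by the same test, 244 (1.63%) higher and 132 (0.881%) lower in CIH, and 4279 (28.6%) passed the FDR alone. The WT libraries also varied less, with a biological coefficient of variation of 0.24 against 0.31 in 5XFAD and a median SE of 0.15 against 0.23. Without WT NX 1 the WT count was 621. Ribosomal protein genes had a median log2FC of −0.73 in WT, with 78 of 87 past the FDR, and OXPHOS genes −0.53, with 62 past it. DAM genes had a median of −0.52. Of the lists that were low in 5XFAD males, endothelial and mural genes had a WT median of −0.70 with none called, and neutrophil genes −1.38 with 7 called lower. Interferon response genes had −0.14 with 6 called lower, and neuronal genes −0.33 with none called. Astrocyte and oligodendrocyte genes went the other way in WT, with medians of 1.23 and 0.63 and 2 called higher in each.

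Whether the CIH effect differed between the genotypes was tested as an interaction over the 4 male groups. No gene of 15813 (0%) passed FDR and fold, the lowest adjusted p was 0.117, and 3857 genes (24.4%) had an unadjusted p under 0.05. DESeq2 called 308 genes and the likelihood ratio test 175. Without 5XFAD NX 1 the quasi-likelihood test called 478, and without NX 4 and NX 5 it called 0, with 1619 genes at an unadjusted p under 0.05. The count of calls therefore depended on the tool and on single libraries.

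Among the genes with the smallest interaction p, Mrgpre, a receptor gene of the Mas-related family, was at 10.7 ± 1.02 CPM (SD) in NX and 6.77 ± 0.757 in CIH among WT libraries, and at 37.9 ± 4.81 and 45.7 ± 6.99 among those of 5XFAD (interaction log2FC 0.93 ± 0.18, SE). Capg, which encodes an actin-capping protein, was at 47.1 ± 6.62 CPM (SD), 23.3 ± 4.499, 228.2 ± 79.9 and 305.6 ± 75.6 in the same order (1.44 ± 0.29, SE). In both genes WT CIH lay below WT NX, whereas the 5XFAD mean was higher in CIH. The median interaction was 0.68 for DAM, 0.82 for OXPHOS and 1.01 for ribosomal protein genes, beside −0.0354 over all genes, with no member of these lists past the FDR. NX 4 and NX 5, whose ribosomal share was low, enter these medians. Without them the 5XFAD medians of CIH against NX were 0.003, −0.08 and −0.09 in that order. The WT medians were −0.52, −0.53 and −0.73. Interaction medians without NX 4 and NX 5 were not computed.

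The study named 7 of the genes tested here for a change, most of them in WT males or in females, and it picked them on libraries of this series. For the libraries compared here it reports Tcap as the only DEG, at a log2FC of 1.15. Here the likelihood ratio test and DESeq2 called Tcap and the quasi-likelihood test did not. Apart from Tcap and Ifitm6 (log2FC −1.55 ± 0.63, SE), none had a p under 0.05, and Ifitm6 was at −0.69 without NX 2. Of all genes, 1.14% had such a p and were higher in CIH, and 2.16% were lower. Cxcl10, an interferon-induced chemokine, was at 18.3, 15.7, 12.7, 7.14 and 7.098 CPM in NX and 10.6, 6.23, 9.52, 7.02 and 16.7 CPM in CIH (log2FC −0.28 ± 0.33, SE), and Ccl5 at 11.6, 12.5, 7.199, 3.73 and 2.84 CPM and 8.11, 5.31, 8.77, 9.41 and 13.8 CPM (0.26 ± 0.39, SE). Cxcl10 was at −0.08 without NX 1, −0.54 without CIH 5 and −0.63 without NX 4 and NX 5, and Ccl5 at 0.52 without NX 2, 0.05 without NX 5 and −0.19 without NX 4 and NX 5. In WT males their log2FC was −1.21 (adjusted p = 0.016) and −1.18 (adjusted p = 0.052) with the quasi-likelihood test. The study counts both among the genes that were significantly lower there.

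In 5XFAD females 0 of 14578 genes (0%) were called by the quasi-likelihood test, with 470 at an unadjusted p under 0.05. The study reports a few DEGs for this comparison. It also mentions an outlier among female normoxia samples without naming it. Female NX 4 is kept in these counts. Sex, age and length of exposure differ between the cohorts and cannot be told apart. The difference between the male and the female effect passed FDR and fold in 0 of 14221 genes (0%), while an unadjusted p under 0.05 was reached by 621 (4.37%). DESeq2 called 3 genes and the likelihood ratio test 5, and the quasi-likelihood test called 1 without male NX 1. Without female NX 4 the quasi-likelihood test called 0 of 13934 genes, with 838 at an unadjusted p under 0.05. Reck had the smallest p (6.93e-05, adjusted p = 0.652), with a log2FC of −1.19 in males and 0.34 in females. Dnajb9 was at 0.50 in males and −0.15 in females (adjusted p = 0.875, quasi-likelihood test). The endothelial and mural median was −1.23 in males, 0.37 in females and 0.53 in females without the female NX 4, and the immediate-early median 0.50, −0.12 and −0.05.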

How the data were processed

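RNA of CD11b+ cells from male 5XFAD cerebrum was sequenced as mRNA libraries (paired-end, Illumina) and aligned to GRCm38 (mm10), with HISAT2 per the submitters' processing notes. The version and the counting tool are not given in the sources used here. As deposited by the authors, the count values are whole reads per gene without normalization, and the FPKM values are these counts divided by gene length and by a scaled library total. Male FPKM values served as an alternative only. Libraries held 13457293 to 21302810 counts, so 1 CPM was 13.5 reads in the smallest. Replicates were the numbered libraries of a group, and no pair of them agreed within sampling noise.

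Genes above 1 CPM in at least 3 of the libraries compared entered the quasi-likelihood F test of edgeR 4.0.16 after TMM scaling (R 4.3.3). Calls needed a Benjamini-Hochberg FDR under 0.05 and an absolute log2FC above 1, the thresholds and filter of the study, which does not name the test of edgeR. Every p printed for a gene is from this fit across all genes unless another tool is named, and a log2FC is CIH minus NX with its SE. The interaction used all 4 male groups, and the cohort comparison used both sexes of 5XFAD on shared gene symbols. The printed CPM values are TMM-scaled. The script was tested on simulated counts.

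Named genes were those past the threshold in edgeR, the 8 protein-coding genes in each direction with the smallest p among those without overlap, the study's named genes, for each of 39 lists the 3 most abundant members and the smallest p in each direction, and the 4 smallest p in each direction of the interaction and cohort tests. Others were named after their values were seen, as were some members of lists and all promoters shown. Members and lists were chosen with earlier results of these data known, and no set test was made. Of the 39 lists, 20 had their medians recomputed under the alternatives. Promoter sequences are from RefSeq (GRCm38.p6), less bases inside annotated exons. Alternatives were DESeq2 1.42.0, the likelihood ratio test, library size alone, other filters and FDR limits, limma 3.58.1 on log2(FPKM + 1) and log2(FPKM + 0.1), all male groups in 1 fit, the replicate number as a block, and each library left out. Fits without NX 4 and NX 5, without CIH 1 and CIH 2 and, in females, without NX 4 were added after the data were seen. Some genes are not reported here.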

Additional observations from a re-analysis of the deposited data

Results flagged for a closer look

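The values of 20 lists and 70 genes in each group of 5 libraries were searched for a library far from the others (beyond the 95% limit of Dixon's ratio), which chance gives in about 5% of groups. Of 180 groups, 12 held such a library, and no cause was tested.

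CIH 1 was far below the other CIH libraries in vascular genes. Its mean log2 CPM over the endothelial and mural list was 1.08, against 2.41 to 2.89, and Cavin1 was at 2.47 CPM, against 5.28 to 6.30 CPM.

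NX 2 was far above the other NX libraries in neutrophil genes and in Epas1. Ngp was at 229.6 CPM against 12.3 to 61.5, S100a8 at 321.3 CPM against 16.7 to 80.4, S100a9 at 391.5 CPM against 19.6 to 102.6, Ifitm6 at 19.7 CPM against 1.59 to 6.68, and Epas1 at 55.9 CPM against 26.9 to 32.4.

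CIH 5 was the lowest CIH library in homeostatic genes, with a mean log2 CPM of 9.80 against 9.88 to 9.91, and the highest in complement genes, with 8.47 against 8.19 to 8.27. It was also the highest for Ndufb6, a subunit of respiratory complex I, at 28.8 CPM against 14.9 to 18.4, and for Ctsd, at 31862 CPM against 18342 to 21675. NX 5 was the highest NX library for Csf3r, at 1244 CPM against 916.6 to 1005 CPM.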

How the results depend on the processing

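The count of DEGs in 5XFAD NX vs 5XFAD CIH was 0, and 0 by FDR alone, in every fit made other than DESeq2 (1 and 1 gene) and the likelihood ratio test (1 and 1), where the gene was Tcap. The adjusted p of Tcap ranged from 0.32 to 1 in the other settings. With 0 as the main count, the interaction gave 308 calls with DESeq2, 175 with the likelihood ratio test, 790 with no filter beyond 1 count and 0 to 478 with 1 library left out (478 without 5XFAD NX 1). The difference between cohorts gave 3, 5 and, with 1 library left out, 0 to 1 (1 without male NX 1). The WT count of 376 was 639 with no filter and 267 to 621 with 1 library left out (621 without WT NX 1). The cause of these changes was not tested.

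List medians moved by more than the spread between libraries in 6 of 420 refits. The homeostatic median was −0.0544 with library size alone, the glucocorticoid median 0.0971 without CIH 1 and CIH 2, the clock median 0.365 without NX 4 and NX 5, and the endothelial and mural median −0.62 with limma on log2(FPKM + 1), a scale that shrinks low genes. With 1 library left out, the inflammatory median ranged from 0.103 to 0.346 (0.346 without NX 1) and the neutrophil median from −1.76 to −0.218 (−0.218 without NX 2). It ranged from −0.62 to −0.06 for astrocyte (−0.06 without NX 2), −0.45 to −0.13 for oligodendrocyte (−0.13 without CIH 1), −0.46 to 0.06 for neuronal (0.06 without CIH 1), 0.07 to 0.30 for DAM (0.07 without CIH 5), 0.09 to 0.39 for OXPHOS (0.09 without CIH 5), 0.12 to 0.41 for ribosomal protein (0.12 without NX 5), 0.25 to 0.59 for immediate-early (0.25 without CIH 1), 0.15 to 0.32 for clock (0.32 without NX 4), 0.03 to 0.18 for lysosome (0.03 without NX 5) and −0.06 to 0.195 for antigen presentation genes. The complement, homeostatic, HIF and glycolysis medians stayed between −0.08 and 0.07. The log2FC of Apoe, Arntl, Atp5b, Bst2, C1qa, Calr, Cst3, Ctsd, Ifitm3, Rplp1 and Sgk1 also moved by more than 1.5 times with 1 library left out.

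The replicate number as a block gave 0 DEGs and 262 genes at an unadjusted p under 0.05. Deviations of NX and CIH libraries of the same number correlated at −0.56 to 0.0092. No pairing by number was seen in these values, which cannot exclude one. The number of genes whose 95% interval lay inside 2-fold ranged from 9137, under the block, to 10694. The median SE was 0.23, and none of the 386 genes with an absolute log2FC above 1 passed the quasi-likelihood test.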

Other observations

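Some gene groups outside the comparisons above are given as values, with log2FC as CIH minus NX in 5XFAD males. Of 26 tested antioxidant genes, 21 were above 0, with a median of 0.11, and 2 had an unadjusted p under 0.05 and were higher, against 1.14% of all genes. Without NX 4 and NX 5 the median was −0.04, with 9 of 26 above 0. Hmox1, the heme-degrading enzyme heme oxygenase 1, was named after its values were seen. It lay wholly higher in CIH, at 74.0, 76.7, 72.3, 46.3 and 55.04 CPM in NX and 110.1, 84.3, 79.8, 78.9 and 84.1 CPM in CIH, with a log2FC of 0.43 ± 0.16 (SE; 0.24 without NX 4 and NX 5), which did not pass the adjusted test (adjusted p = 0.995, quasi-likelihood test of edgeR). Of 28 genes of lipid and cholesterol handling, 8 were above 0, with a median of −0.06 and 1 at a p under 0.05, which was lower, against 2.16% of all genes. Genes of monocytes (9 tested, median −0.25), border macrophages (11 tested, 0.16), lymphocytes (12 tested, 0.15) and the cell cycle (30 tested, −0.09) each had 1 member at a p under 0.05. It was higher in CIH for the first 3 groups, against 1.14% of all genes, the monocyte member against the sign of its list's median, and lower for the cell cycle, against 2.16%. Without NX 4 and NX 5 the lymphocyte median was −0.30 and the cell cycle median −0.13.

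Genes of the translation and protein turnover machinery followed the ribosomal protein genes. Mitochondrial ribosomal proteins had a median of 0.16 with 70 of 77 above 0, and proteasome subunits 0.15 with 41 of 48 above 0. Without NX 4 and NX 5 their medians were −0.09 and −0.07, and in WT males −0.45 and −0.38. The 12 tested genes of the mitochondrial genome had a median of 0.04, and −0.25 without NX 4 and NX 5.

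Gapdh, a glycolytic enzyme often used as a reference gene, was highest in NX 1, at 133.7, 25.3, 31.1, 21.3 and 22.8 CPM in NX and 27.1, 17.2, 24.1, 22.1 and 32.3 CPM in CIH. It has many processed copies in the mouse genome, so its counts are uncertain, and it was named after its values were seen.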
